A study of Homo sapiens with 6 samples.

Results

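The measurements described here follow the cystic clone of HCA-7 through 15 days of culture in a collagen gel. HCA-7, a long-established line of human colorectal cancer cells, forms cystic or spiky colonies in type 1 collagen. The cystic clone, cc3 in the labels, was grown in collagen in wells, and total RNA of the cell-containing gel layer was hybridised to Affymetrix U133 Plus 2.0 arrays at day 5, day 10 and day 15. The members are these 3 cystic arrays of the 6 in the series, chosen by their labels, with 1 array per day; the other 3 carry the spiky clone, sc1, at the same days. All 6 arrays come from untreated cells of the same line, and no agent or genetic change is named. The cystic shape is represented by 1 clone, and nothing in the labels says whether the days were separate cultures. Culture day therefore cannot be told apart from anything else that set the 3 arrays apart, and every difference lacks a replicate check.

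A cyst in collagen is a hollow epithelial colony that grows as its cells divide around a lumen. Cells in a thickening colony can run short of oxygen, and HIF transcription factors then switch on genes for glucose use, blood vessel growth and collagen modification. YAP and TEAD carry signals of stretch and cell density to genes such as CCN1 and CCN2. WNT signalling induces its own inhibitors, and NF-kB drives chemokines.

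Array medians over all probe sets lay between 5.23 and 5.34 on the log2 scale of the 3 cystic arrays. Epithelial identity was checked on 10 markers, of which 6 had a cystic mean of at least log2 5: EPCAM, CDH1, KRT8, KRT18, KRT19 and VIL1. Those under it were the colonic markers CDX2, KRT20, LGALS4 and CEACAM5, with KRT20 at 3.08, 2.62 and 2.44. The signals of the epithelial list summed to 14774 to 20254 on the linear scale, highest at day 5. KRT18 was at 12.79, 12.09 and 12.0 and EPCAM at 11.84, 11.86 and 11.63. The fibroblast list had 3 of 12 markers at that level and sums of 318 to 533, highest at day 15, with COL1A1 at 6.50, 7.02 and 8.12 and DCN and LUM under log2 4 at each day. The leukocyte list had 4 of 10 measured markers at that level and sums of 836 to 1895, again highest at day 15, with lysozyme LYZ at 9.11, 9.56 and 10.69 and the pan-leukocyte gene PTPRC at 2.71 to 3.14. The endothelial list had 2 of 8 and sums of 302 to 382. The 3' minus 5' signal difference of the ACTB control probe sets, a sign of RNA integrity, was 2.83, 3.18 and 3.28 at day 5, 10 and 15; that of GAPDH was 0.65, 0.79 and 0.63. The part of these values in the changes below was not tested.

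The promoters of CCN2, ALDOC, GINS2 and SP5 were chosen by hand, with the motifs to mark in each, so a match is no finding about a course. They show the sequence context of genes with different courses in time. CCN2 fell steadily, ALDOC on the hypoxia side rose late, GINS2 of DNA replication fell late and the WNT target SP5 rose late. Each window runs from 250 bases before to 50 bases after the gene's start, from RefSeq on GRCh38.p14, and is written 5' to 3' on the gene's strand. For CCN2 (chr6:131951323-131951622, minus strand) capitals mark the TEAD motif GGAATG, for ALDOC (chr17:28576846-28577145, minus strand) the hypoxia response cores ACGTG and GCGTG, for GINS2 (chr16:85688905-85689204, minus strand) the E2F motif GCGGGAA, and for SP5 (chr2:170715087-170715386, plus strand) the TCF motif CTTTGAT. Both strands were searched, so the reverse complement is also in capitals.
CCN2: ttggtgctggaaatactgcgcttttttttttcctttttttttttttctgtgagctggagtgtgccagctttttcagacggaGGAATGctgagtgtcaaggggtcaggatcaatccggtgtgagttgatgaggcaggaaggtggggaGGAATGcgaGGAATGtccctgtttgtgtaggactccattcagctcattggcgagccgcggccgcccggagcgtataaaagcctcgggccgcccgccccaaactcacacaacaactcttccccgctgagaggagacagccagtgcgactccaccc
ALDOC: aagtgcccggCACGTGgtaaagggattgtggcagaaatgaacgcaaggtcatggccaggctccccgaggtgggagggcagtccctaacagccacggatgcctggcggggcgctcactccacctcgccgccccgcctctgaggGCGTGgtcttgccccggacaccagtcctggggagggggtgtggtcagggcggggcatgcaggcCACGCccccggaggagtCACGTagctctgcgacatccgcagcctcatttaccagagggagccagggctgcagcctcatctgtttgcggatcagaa
GINS2: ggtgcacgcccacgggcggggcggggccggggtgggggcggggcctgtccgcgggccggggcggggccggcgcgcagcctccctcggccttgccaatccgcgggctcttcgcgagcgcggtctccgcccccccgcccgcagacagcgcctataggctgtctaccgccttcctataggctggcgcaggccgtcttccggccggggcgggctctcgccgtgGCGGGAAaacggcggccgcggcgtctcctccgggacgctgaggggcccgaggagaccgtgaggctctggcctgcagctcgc
SP5: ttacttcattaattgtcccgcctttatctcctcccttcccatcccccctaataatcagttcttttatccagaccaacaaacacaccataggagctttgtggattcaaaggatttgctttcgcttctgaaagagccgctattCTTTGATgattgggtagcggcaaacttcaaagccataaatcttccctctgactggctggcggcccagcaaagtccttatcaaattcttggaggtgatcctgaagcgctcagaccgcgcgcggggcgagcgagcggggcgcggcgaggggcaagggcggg
The CCN2 window held 3 matches and the ALDOC window 5, of which a pair overlaps as CACGTG; those of GINS2 and SP5 held 1 each.

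A gene was called when its highest and lowest cystic value differed at least 2-fold (log2 1), and the words rose and fell are used for such differences. Values under log2 5, which are close to background, were set to 5 first, so a fold that involves such a value is a lower bound. Of 12411 genes with a cystic mean of at least log2 5, 1131 were called, 9.11% of all. On both sides of that threshold genes were dense, with 154 called genes within 0.05 above it and 189 uncalled ones within 0.05 below it. A bulk RNA value cannot tell fewer cells of a type from less RNA per cell.

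The later step was the larger one. From day 10 to day 15, 617 genes moved at least 2-fold (306 up, 2.47% of those described, and 311 down, 2.51%), against 142 from day 5 to day 10 (71 up and 71 down, 0.572% each). The median size of a step was 0.29 for the late and 0.19 for the early one, and in 62.2% of genes the late step was the larger. Day 15 was at least 2-fold above day 5 for 409 genes (3.30%) and below it for 447 (3.60%). The median gene lay 0.11 lower at day 15 than at day 5, and with each array centred on its median the split was 541 higher and 280 lower.

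**Figure D1:**
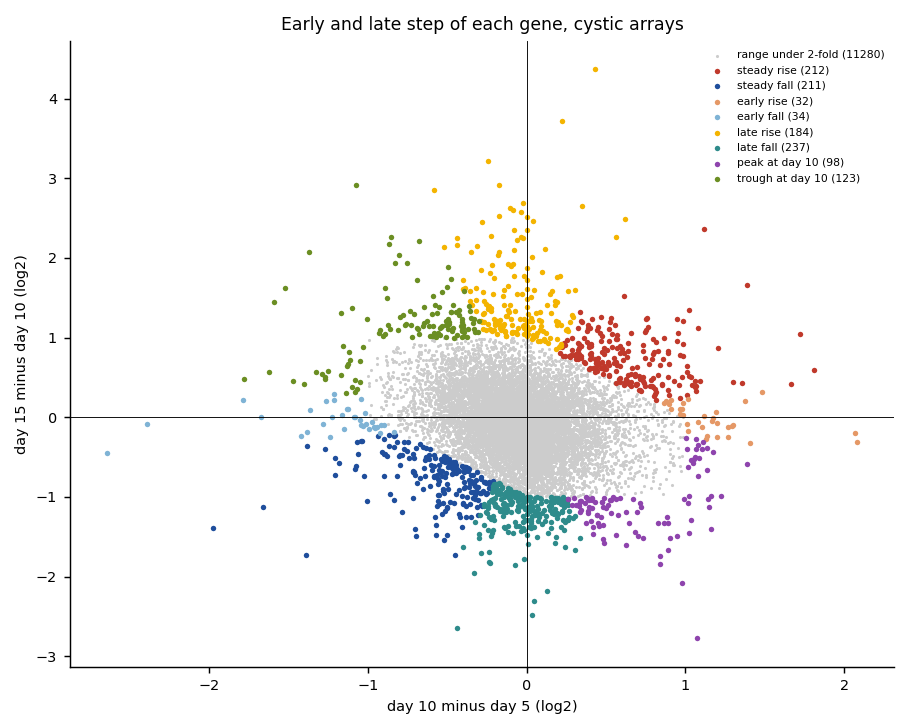
Each point is 1 of 12411 genes, with the early step (day 10 minus day 5, log2) on the horizontal and the late step (day 15 minus day 10, log2) on the vertical axis; colours mark the patterns of called genes and grey the others, with counts in the legend. The cloud is taller than it is wide, with DKK4 at the top at 4.37 and CYP1A1 at the far left at -2.64.

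Called genes were split by their steps. In a steady course both steps went the same way and the smaller was at least 0.25 of the larger; this held for 212 rising genes (1.71%) and 211 falling ones (1.70%). An early step alone was seen for 32 rising (0.258%) and 34 falling genes (0.274%), and a late step alone for 184 rising (1.48%) and 237 falling genes (1.91%). The remaining 221 turned at day 10, 98 with a peak (0.790%) and 123 with a trough (0.991%). By the plain rule that day 10 lies between day 5 and day 15, 658 called genes qualified, 293 higher and 365 lower at day 15.

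**Figure D2:**
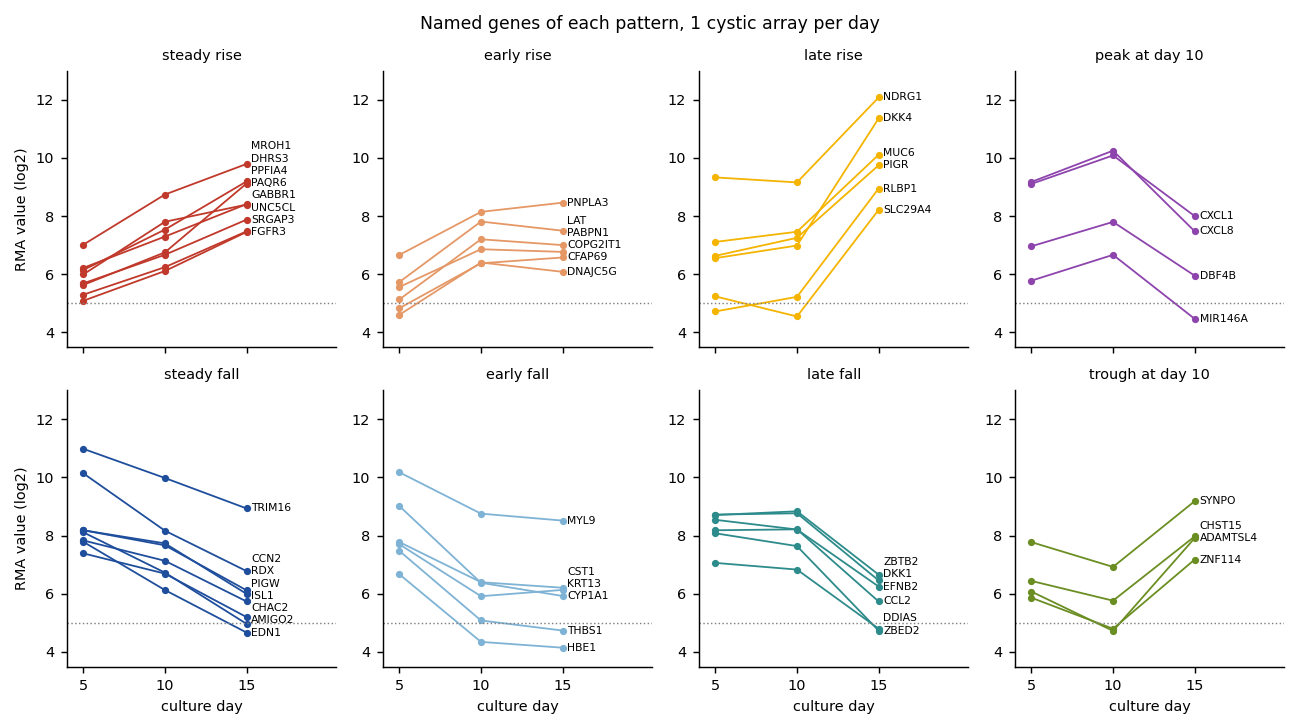
Log2 RMA values of the named genes of each pattern at culture day 5, 10 and 15, with 1 cystic array per point and the dotted line at log2 5; names are stacked in the order of the day 15 values. Late rises move little to day 10 and end at 8.21 to 12.08, while steady courses move at both steps.

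Among steady rises the largest range was that of PPFIA4, a liprin scaffold gene, at 5.63, 6.75 and 9.12, or 11.2-fold. DHRS3, which encodes an enzyme that reduces retinal, was at 6.15, 7.54 and 9.19 (8.24-fold). MROH1 was at 7.02, 8.74 and 9.79 (6.84-fold), and its other bright probe set moved the same way. In these 3 genes each later array was above the one before by more than log2 1. GABBR1, a subunit gene of the GABA-B receptor, was at 6.0, 7.80 and 8.39 and took most of its rise early. The growth factor receptor gene FGFR3 was at 5.09, 6.11 and 7.45, a 5.15-fold rise that started near background. PAQR6, of the membrane progestin receptor family, UNC5CL and SRGAP3 rose 4.57-fold, 4.56-fold and 4.52-fold with both steps between 0.95 and 1.23.

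The steady falls were led by CCN2, the matricellular YAP target whose promoter is shown above. Its values were 10.14, 8.17 and 6.78, a 10.3-fold fall with -1.97 at the early and -1.39 at the late step. AMIGO2, a cell adhesion gene, was at 8.11, 6.73 and 4.97, at least 8.66-fold lower at the end. EDN1, which encodes endothelin 1, was at 7.79, 6.13 and 4.67, at least 6.90-fold lower. All 3 lost more than log2 1 at each step. The glutathione-degrading enzyme gene CHAC2 was at 7.39, 6.69 and 5.20, and PIGW, an enzyme of GPI anchor synthesis, at 8.18, 7.73 and 6.0. The LIM homeodomain factor ISL1 (7.83, 7.13 and 5.74) and radixin, RDX, which ties actin to the membrane (8.18, 7.67 and 6.12), took most of their fall late. TRIM16 fell evenly, from 10.98 through 9.98 to 8.94.

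Few genes changed only early. CYP1A1, the cytochrome P450 that the aryl hydrocarbon receptor induces, was at 9.02, 6.38 and 5.93, and -2.64 of its change came by day 10. Thrombospondin 1, THBS1, was at 7.48, 5.08 and 4.74, at least 5.56-fold lower, with its other bright probe set in the same direction. The myosin light chain gene MYL9 was at 10.18, 8.76 and 8.52, but its other bright probe set had the opposite sign. KRT13, a keratin of stratified epithelium, was at 7.70, 5.92 and 6.13, CST1, a cystatin, at 7.78, 6.40 and 6.21, and the embryonic globin gene HBE1 at 6.67 and then under log2 5. The early fall thus left these 6 genes at a new level that the late step moved by 0.45 at most.

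The early rises began at lower levels, with a median of 5.86 at day 5 against 7.21 for the early falls. LAT, an adaptor of T-cell receptor signalling, was at 5.73, 7.81 and 7.50, and the poly(A)-binding protein gene PABPN1 at 5.13, 7.20 and 7.0. Whether the LAT probe set detects another transcript was not checked. PNPLA3, a lipid droplet enzyme, was at 6.67, 8.15 and 8.46. CFAP69 and DNAJC5G started under log2 5 and rose at least 2.98-fold and 2.65-fold, and COPG2IT1 rose 2.46-fold. Of the 32 early rises 10 (31.3%) were annotated as lncRNA genes, against 5.22% of all genes described. The share was 12.3% of steady rises, 9.24% of late rises and 12.2% of genes with a peak at day 10. It was 8.82% of early, 4.27% of steady and 1.27% of late falls, and 4.88% of genes with a trough.

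Late rises held the 2 largest ranges of all genes, those of DKK4 and RLBP1. DKK4, a secreted inhibitor of WNT signalling, was at 6.56, 6.99 and 11.36, so that its 27.9-fold rise fell almost wholly between day 10 and day 15. RLBP1, a retinaldehyde-binding protein gene, was at 4.72, 5.22 and 8.95, at least 15.4-fold above day 5. SLC29A4, a transporter of monoamines and nucleosides, was at 5.24, 4.55 and 8.21. In all 3 the day 15 array stood alone. PIGR, the epithelial carrier of secreted antibodies, was at 6.63, 7.25 and 9.75 (8.64-fold), and the gel-forming mucin gene MUC6 at 7.11, 7.46 and 10.11 (7.97-fold). NDRG1, a hypoxia-induced gene, was at 9.33, 9.16 and 12.08.

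Among late falls ZBED2 led with 8.08, 7.64 and 4.73, at least 8.45-fold. The monocyte chemokine gene CCL2 was at 8.18, 8.22 and 5.74, and DKK1, another WNT inhibitor, at 8.72, 8.77 and 6.46. Both were level until day 10. The ephrin ligand gene EFNB2 was at 8.54, 8.21 and 6.25, with its other bright probe set in the same direction. ZBTB2 was at 8.71, 8.84 and 6.66, and DDIAS at 7.06, 6.83 and 4.80.

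Chemokines headed the genes with a peak at day 10. CXCL8, the neutrophil chemokine interleukin 8, was at 9.18, 10.25 and 7.48, a gain of 1.07 followed by a loss of 2.77. CXCL1, which acts on the same receptor family, was at 9.11, 10.09 and 8.0. DBF4B, a regulatory subunit of the CDC7 kinase, was at 6.96, 7.80 and 5.95. A probe set that the platform's table gives to MIR146A was at 5.78, 6.67 and 4.47; it does not measure the mature microRNA, and the other bright probe set had the opposite sign. At the trough, ADAMTSL4 was at 6.08, 4.73 and 7.91, the actin-associated gene SYNPO at 7.78, 6.92 and 9.18, CHST15, a sulfotransferase, at 6.44, 5.76 and 7.97, and ZNF114 at 5.86, 4.80 and 7.18. All 4 ended above their day 5 value.

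Where a gene had another bright probe set, it served as a check within the same arrays. Of 509 called genes with one, 388 had every other bright probe set on the same side (76.2%), against 55.4% over all genes described. The share was 71 of 81 for late rises, 84 of 112 for late falls, 71 of 94 for steady falls and 80 of 116 for steady rises. Called genes were picked for large differences, so a share above that of all genes follows from the choice and does not back the calls. The other probe sets share the RNA and the arrays and are no replicates.

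Gene lists from textbook biology were described by their counts and medians, beside a median of -0.05 at each step and of -0.11 from day 5 to day 15 over all genes, of which 3.30% rose and 3.60% fell at least 2-fold by day 15. A list's count near those shares, such as 1 gene of 20 to 30, is no result about the list. The hypoxia list outside glycolysis moved late. Of its 26 genes 14 rose and 0 fell at least 2-fold from day 5 to day 15, 13 of them at the late step alone, and the list's median was -0.11 at the early and 1.05 at the late step. PLOD2, a collagen lysyl hydroxylase, was at 7.12, 7.03 and 9.63, and the myoglobin gene MB at 6.10, 6.0 and 8.63. VEGFA, the vascular growth factor, was at 7.57, 7.47 and 8.88, with 3 of 3 other bright probe sets alike, and DDIT4, an inhibitor of mTOR signalling, at 9.85, 9.68 and 12.20. KDM3A, a histone demethylase, was the member with a steady course (6.99, 7.32 and 8.44). The list was not uniform. Adrenomedullin, ADM, was at 8.23, 7.25 and 7.85 and STC2 at 8.79, 8.03 and 7.95, and CA9 had no probe set named for it alone.

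Glycolysis genes split the same way in time. Of 22 genes 5 rose and 0 fell at least 2-fold by day 15, with medians of -0.21 and 0.73 at the early and late step. PDK1, the kinase that shuts pyruvate out of the mitochondrion, was at 7.89, 7.85 and 10.11. TXNIP, an inhibitor of glucose uptake, was at 9.39, 9.11 and 11.56, and the aldolase gene ALDOC at 8.98, 8.54 and 10.79. The glucose transporter SLC2A1 dipped and recovered, at 10.02, 9.53 and 10.76. GAPDH, PFKM and GBE1 ended within 0.14 of their day 5 values. Genes of 1 pathway thus ran from little difference to a 4.68-fold rise.

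DNA replication genes were lower at day 15. Of 35 genes in the replication and G1/S list 9 fell (5 with the arrays centred or under cyclic loess) and 1 rose at least 2-fold, 33 had a negative difference, and the medians were -0.07 early and -0.68 late. GINS2, a subunit of the replicative helicase, was at 9.63, 9.49 and 8.11, although 1 of its other 2 bright probe sets had the opposite sign. With the mean of its bright probe sets GINS2 differed by -0.61 and was not called. CCNE2, a G1 cyclin, was at 8.27, 7.75 and 6.82, and MCM2 at 10.20, 9.68 and 9.16; both fell steadily. GINS4 was the exception, at 6.62, 6.58 and 7.82. The mitosis list of 31 genes had a smaller median, -0.52, with 2 genes past 2-fold, KIF2C at 9.22, 8.65 and 7.93 and PLK1 at 7.61, 7.23 and 6.60. Neither call was firm: with the mean of its bright probe sets KIF2C differed by -0.69, and with centred arrays PLK1 by -0.89. The proliferation marker MKI67 was at 9.71, 9.94 and 9.37, and TOP2A at 10.56, 10.76 and 10.78. In ribosome biogenesis all 20 genes had negative differences and 5 fell at least 2-fold, among them RRS1 (10.29, 10.40 and 9.10). That count was 2 with centred arrays, 0 under cyclic loess and 1 with the mean of bright probe sets. MRTO4, called as a steady fall with a difference of -1.05, had one of 0.14 with the mean of bright probe sets. MYC itself was at 10.83, 10.99 and 10.49.

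**Figure D3:**
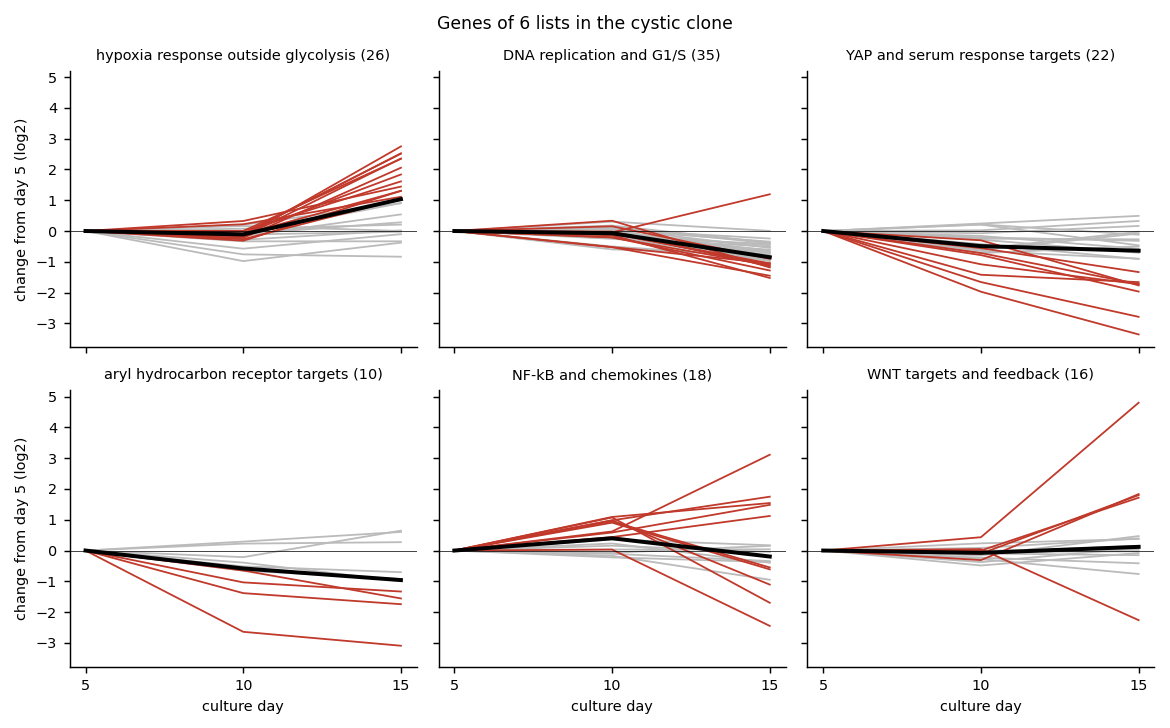
Change from the day 5 array (log2) at culture day 5, 10 and 15 for every described gene of 6 lists in the cystic clone; red lines are genes with a range of at least 2-fold, grey lines the others and the black line the list median. Hypoxia genes stay level to day 10 and reach a median of 1.03 at day 15, while YAP and aryl hydrocarbon receptor targets are already lower at day 10.

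In the list of YAP and serum response targets steady falls prevailed among the called genes. Of 22 genes 8 fell and 0 rose at least 2-fold by day 15, 6 of them steadily, with medians of -0.49 early and -0.37 late. Beside CCN2 and EDN1 these were CCN1 at 7.92, 6.84 and 6.19, AMOTL2, a regulator of YAP, at 8.80, 8.02 and 6.84, tissue factor, F3, at 10.66, 9.94 and 8.93, and the LIM scaffold gene AJUBA at 8.96, 8.41 and 7.63. FJX1 fell late and MYL9 early. At the other end, TGFB2 was at 5.65, 5.89 and 6.14.

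The aryl hydrocarbon receptor list had its larger median change early. Of 10 genes 4 fell and 0 rose by day 15, CYP1A1 early and the other 3 steadily, and the medians were -0.58 early and -0.28 late. After CYP1A1, CYP1B1 was at 7.06, 5.68 and 5.32, and the glucuronosyltransferase UGT1A6 at 9.52, 8.49 and 8.19. The receptor gene AHR itself was at 8.08, 8.37 and 8.68 and its partner ARNT at 8.13, 7.92 and 8.78. Both are counted in the list, and 3 of its 10 genes had a positive difference.

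Inflammatory genes took 3 different courses. CXCL1, CXCL2, CXCL3 and CXCL8, all 4 with a peak at day 10, gained 0.91 to 1.07 and then lost 1.49 to 2.77. IL1A (4.25, 5.98 and 6.75), the NF-kB regulator NFKBIZ (8.15, 9.24 and 9.70), TNFAIP2 and lipocalin 2, LCN2 (9.08, 9.66 and 10.56), rose steadily. PIGR rose and CCL2 fell late. Of the 18 genes of this list 5 rose and 3 fell by day 15, so its median of -0.19 hides movement in both directions. In the interferon list 4 of 29 genes, IFI6, IFIT1, MX2 and GBP2, had a trough at day 10, against 0.991% of all genes. The list median was -0.34 early and 0.37 late. IRF9, a subunit of the interferon-activated factor, was at 6.96, 6.56 and 8.17, while IFIT2 was at 6.45, 5.52 and 5.28. In antigen presentation HLA-DRB1 rose late, at 7.78, 7.46 and 8.93.

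The WNT feedback genes that passed the call did so at the late step. Of 16 genes 4 rose and 1 fell, all 5 at the late step alone. SP5, a transcription factor induced by WNT, was at 5.47, 5.16 and 7.30, DKK3 at 6.87, 6.77 and 8.67 and the WNT inhibitor APCDD1 at 4.80, 4.40 and 6.72. DKK4 and DKK1, both secreted dickkopf inhibitors, thus went in opposite directions between the same arrays. AXIN2, a widely used WNT target, was at 8.01, 7.85 and 8.48, and LGR5 had a mean under log2 5.

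Genes of the differentiated epithelium changed in single members rather than as lists. Of 28 junction genes CLDN2, the pore-forming claudin, was at 5.28, 5.11 and 7.18 and TJP3 at 7.21, 7.30 and 8.40, while the desmosomal PKP2 was at 6.91, 6.70 and 5.67; CDH1 was at 10.51, 10.31 and 10.55. Of 14 transport genes 8 had a positive and 6 a negative difference from day 5 to day 15, with a median of 0.16. The sodium channel subunit SCNN1A was at 8.16, 8.32 and 9.91 and KCNQ1 at 6.32, 6.15 and 7.27. CFTR, at 9.07, 9.34 and 9.70, was not called, nor was KCNE3, at 5.57, 5.86 and 5.07. Among 16 goblet and secretory genes 2 rose and 2 fell: MUC4 was at 11.13, 10.82 and 12.15 and TFF1 at 5.86, 6.22 and 7.22, against KLF4 at 8.28, 7.59 and 6.77 and MUC12 at 6.62, 4.79 and 5.56. MUC1, a membrane mucin, dipped to 7.68 between 8.34 and 8.83. MUC2 and KRT20 had means under log2 5.

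Of 33 matrix, protease and integrin genes 4 rose and 0 fell by day 15, against 3.30% and 3.60% of all genes. The plasminogen activator gene PLAT was at 7.41, 7.33 and 9.43, transglutaminase TGM2 at 5.02, 4.95 and 7.69 and the collagen receptor subunit ITGA1 at 5.54, 5.32 and 6.87. MMP7, a matrix protease, peaked with 8.08, 9.12 and 7.83, and the urokinase gene PLAU with 6.66, 7.67 and 7.27. Of 21 p53 and growth arrest genes 6 rose (3 with the mean of bright probe sets) and 0 fell, led by SESN3 (6.13, 5.95 and 7.98) and TP53INP1 (6.02, 6.48 and 7.54). The list median was only 0.12 from day 5 to day 15. A negative difference was seen in 7 genes, lowest in KLF6 (10.44, 10.49 and 9.55) and TP53I3 (8.21, 8.24 and 7.42). CDKN1A, the p21 inhibitor, was at 10.50, 10.10 and 11.18. In the MAPK list the immediate early genes parted: EGR1 was at 11.13, 11.39 and 12.98 and FOS at 6.10, 5.67 and 7.83, whereas JUN was at 8.49, 7.60 and 6.86. EGFR was at 8.37, 7.97 and 7.66 and its ligand EREG at 9.72, 9.93 and 9.26, with its other bright probe set opposite in sign.

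Among genes of amino acid supply and the unfolded protein response 6 of 27 fell (3 with centred arrays) and 0 rose. PSAT1, of serine synthesis, was at 10.27, 10.15 and 8.71, the stress factor ATF3 at 7.94, 7.52 and 6.27 with its other bright probe set opposite in sign, and the chaperone HSP90B1 at 11.89, 12.08 and 12.26. Of 22 metallothionein and oxidative stress genes 3 fell, including GCLM, of glutathione synthesis, at 8.31, 7.93 and 6.68. PMEPA1, a feedback inhibitor of TGF-beta, fell late in its list of 19 genes (11.22, 10.82 and 9.19). The prostaglandin-degrading enzyme gene HPGD was at 8.02, 7.46 and 6.11, with 3 of 3 other bright probe sets alike, and the cyclooxygenase PTGS2 at 10.67, 10.95 and 11.32. None of 21 cholesterol and fatty acid genes was called, 1 of 21 lysosome and autophagy genes fell (MCOLN1), and 1 of 10 enterocyte genes rose (EPS8L3), counts that the shares of 3.60% and 3.30% over all genes do not set apart.

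**Figure D4:**
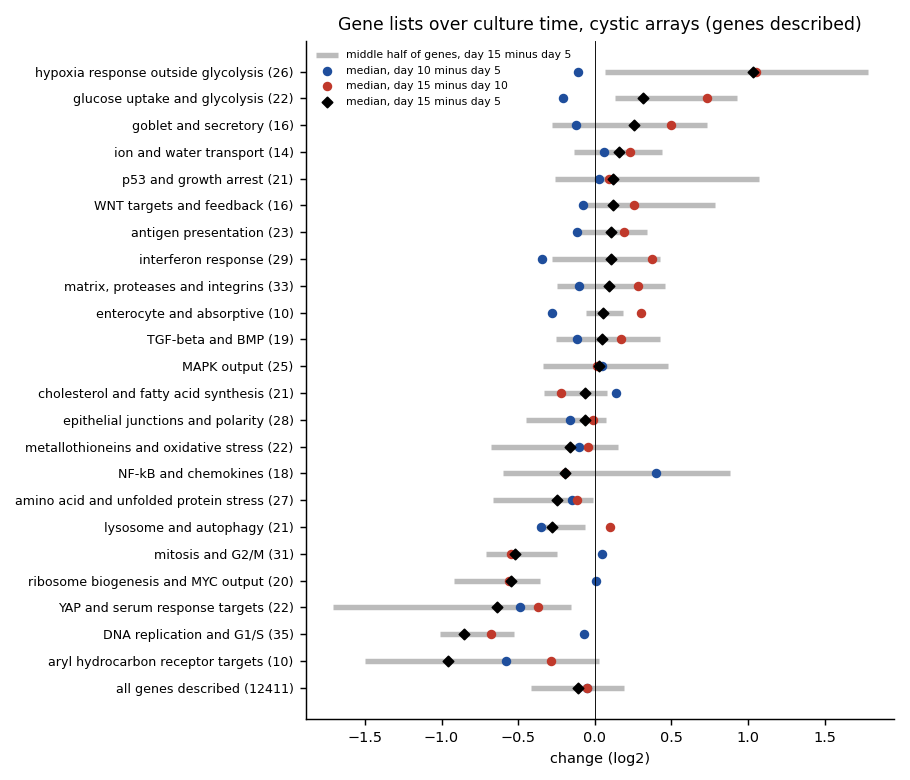
Median change (log2) of each gene list in the cystic arrays at the early step (blue), the late step (red) and from day 5 to day 15 (diamonds), with grey bars for the middle of the genes between the lower and upper quartile and the number of genes described in brackets. Hypoxia genes lie highest at 1.03 and aryl hydrocarbon receptor targets lowest at -0.96, against -0.11 for all genes.

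Promoters were available for 10077 of the described genes, and the motif shares below describe letters in a window, not sites. The E2F motif lay in 55.2% of 29 replication promoters and 10.4% of all. The CHR motif TTTGAA of cell cycle genes lay in 64.0% of 25 mitosis promoters and 9.75% of all, and CCAAT in 80.0% against 36.4%. TEAD motifs lay in 37.5% of 16 promoters of the YAP list and 10.7% of all. By pattern the shares were closer to those of all genes: E2F in 16.9% of 201 late falls, TEAD in 12.4% of 177 steady falls, and the hypoxia cores ACGTG or GCGTG in 61.4% of 132 late rises against 62.6%. The TCF motif CTTTGAT lay in 5 of 132 late rises (3.79%), in 1.41% of all and in 1 of 10 promoters of the WNT list.

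The cystic arrays alone allow 1 test, of a straight line through the 3 days, in which the departure of day 10 is the only residual. The variance was pooled across genes, with 17.2 prior degrees of freedom against 1 residual one. Each SE is thus mostly the pooled one, and a small p does not mean a straight course. DKK4, with steps of 0.43 and 4.37, was far from a line. With Benjamini-Hochberg adjusted p-values limma passed 254 of 12411 genes (2.05%), 141 rising (1.14%) and 113 falling (0.910%), and 246 of them were also past 2-fold. CCN2 had the smallest adjusted p, with -3.36 over 10 days (SE 0.34, limma adjusted p = 0.000106). PPFIA4 was at 3.49 (SE 0.40, limma adjusted p = 0.000293) and DKK4 at 4.80 (SE 0.63, limma adjusted p = 0.000737). The test passed 89 of the 212 steady rises, 66 of the 211 steady falls, 44 of the 184 late rises and 37 of the 237 late falls. These patterns were picked by their range on the same 3 arrays, so high shares were built in and do not back the patterns. By list it passed 8 of 22 YAP, 4 of 10 aryl hydrocarbon receptor and 9 of 26 hypoxia genes. The count moved with the settings, to 12 with cyclic loess between the arrays and 390 with a filter at log2 6.

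The spiky arrays, which played no part in the sorting, give the same genes a second look. Of the 910 called cystic genes that did not turn, 428 (47.0%) moved at least 2-fold in the same direction in the spiky clone over the same days (day 5 to day 15 for steady courses, the single step for the others). Among late rises this was 123 of 184, where 5.09% of all genes rose as much in the spiky clone between day 10 and day 15. For steady rises it was 103 of 212 and for steady falls 94 of 211, against 5.17% and 6.57% of all genes from day 5 to day 15. Late falls did so in 100 of 237 (2.70% of all genes). Among early patterns it was 3 of 32 rises and 5 of 34 falls, against 0.250% and 0.685% of all genes; differences between patterns were not tested. Over 12411 genes the early steps of the clones correlated at r = 0.39 and the late ones at r = 0.68, as a description across genes that share arrays and normalisation.

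**Figure D5:**
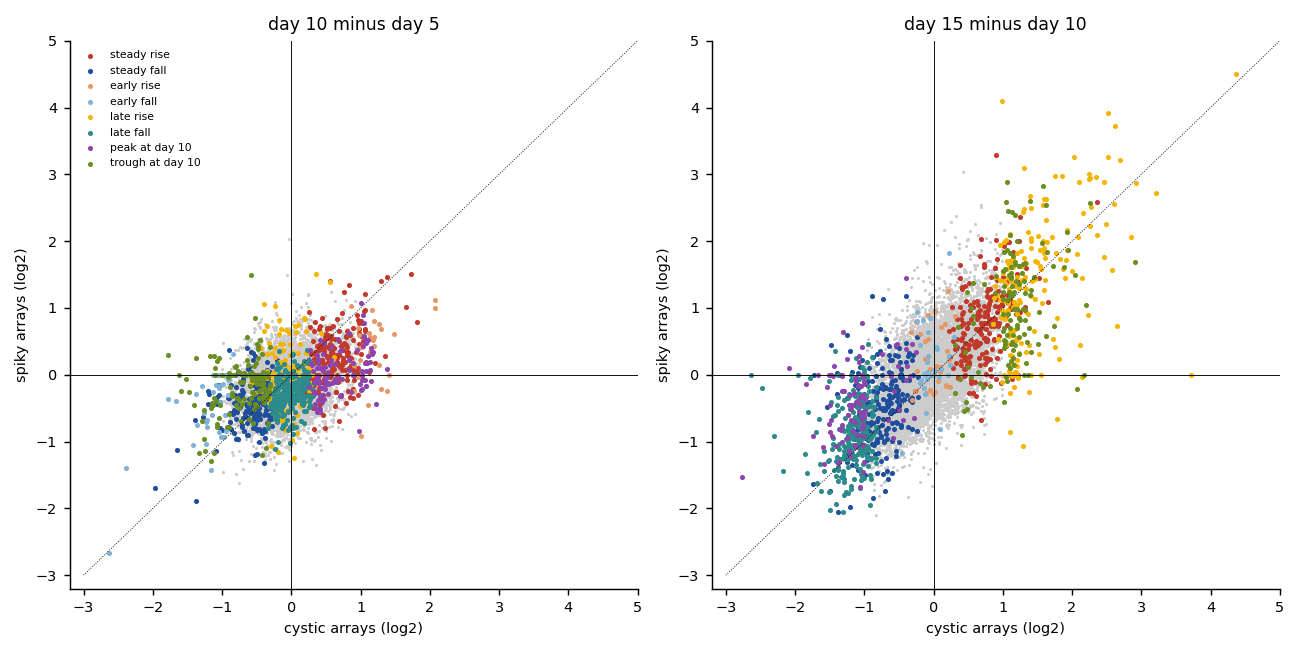
Early step (left) and late step (right) of each of 12411 genes in the cystic (horizontal) and spiky (vertical) arrays, in log2; colours mark the cystic patterns, grey the genes not called, and the dotted line equal change. Late rises lie along the line on the right, with 123 of 184 past 2-fold in the spiky clone too.

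The full pattern was the same in both clones for 63 of 212 steady rises (1.91% of all genes had it in the spiky clone), 76 of 211 steady falls (4.44%), 91 of 184 late rises (3.31%) and 78 of 237 late falls (2.10%). Of the early patterns 2 of 32 rises (0.0806%) and 1 of 34 falls (0.250%) recurred, and of those that turned 4 of 98 peaks (0.169%) and 17 of 123 troughs (1.64%). CXCL8 in the spiky clone was at 7.12, 7.17 and 5.64, and CXCL1 at 6.18, 5.34 and 5.43, with early steps of 0.05 and -0.84. RLBP1, which rose in the cystic clone, stayed at 4.28 to 4.83 in the spiky one, and ISL1 was at 8.54, 8.48 and 8.20 there. CCN2 was at 10.19, 8.49 and 8.51, with a late step of 0.02 against -1.39 in the cystic clone. The difference in slope between the clones was tested with limma over all 6 arrays, and 0 of 12411 genes passed (0%; 300 had an unadjusted p under 0.05, and 358 with a constant variance prior). The differences with the smallest p were those of TMEM158 (3.01), GPX2 (1.27) and SLC7A11 (2.41) on the higher side and AJUBA (-2.33), RUNX3 (-2.54) and NPC2 (-1.40) on the lower side, in log2 per 10 days, each with limma adjusted p = 1. An alternative chosen after seeing the data paired the clones by day, with day as a block and 1 residual degree of freedom. That fit passed 71 genes (0.572%), 17 with a higher and 54 with a lower slope in the cystic clone, but 0 with a constant variance prior and 316 with centred arrays. All 6 genes just named passed it, as did CCN2 (-1.69, SE 0.31, limma adjusted p = 0.0117), RLBP1 (3.92, SE 0.59, limma adjusted p = 0.00307) and ISL1 (-1.76, SE 0.36, limma adjusted p = 0.0252). Whether slopes differed between the clones therefore depended on the model. On simulated data the fit without the block recovered 28.0% of genes with a slope difference of 2 and the blocked fit 86.0%, and each recovered 100% of those with 4. Each simulation drew its noise from its own fit's variances (median SD 0.232 without the block and 0.184 with it). Neither held a day effect shared by the clones, so these shares cannot rank the 2 fits.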

How the data were processed

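The deposited log2 values are RMA output per the submitters' processing notes, which name no version. How the arrays were background-corrected and normalised is otherwise not given in the sources used here. Gene names come from the platform's annotation, updated to current RefSeq symbols (GRCh38.p14): of 54675, 41097 had 1 symbol, 1801 several and 11777 none. Each gene is its probe set with the highest cystic mean, kept at a mean of at least log2 5 (12411 genes, 924 of them on an _x_at probe set, a type that can detect related genes). No probe sequences were at hand. Whether probe sets such as those of MROH1, GABBR1 and LAT lie in introns or detect other genes was therefore not checked. Precision is limited by the number of arrays. Steps, patterns and fold calls were computed from the 3 cystic arrays with no test. Slopes were tested two-sided with limma 3.58.1 under R 4.3.3, with a variance prior that followed intensity: day as a number in the cystic arrays (1 residual degree of freedom) and its interaction with colony shape in 6 arrays (2), the latter also with day as a block (1), added after seeing the data. On simulated data the cystic slope test recovered 22.0% of slopes of 1 and 100% of slopes of 2 (log2 per 10 days), with 4.31% false calls. The simulated noise came from the fitted variances and was independent between genes, without shifts of a whole array. That share is therefore no error rate for the real arrays.

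Named genes were the 8 largest ranges of each steady pattern, 6 of each single-step and 4 of each turning pattern, without _x_at probe sets and provisional symbols (LOC, orf); per list the 2 highest and 2 lowest differences; and 25 further genes. Other list members were added after their values were seen. The patterns, 23 gene lists and 4 marker lists were chosen with earlier results of these data known. Figures were drawn with matplotlib 3.10.9.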

Additional observations from a re-analysis of the deposited data

Results flagged for a closer look

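AJUBA and TMEM158 had differences from day 5 of opposite sign in the clones; for TMEM158 the cystic difference at day 10 was near 0. AJUBA, a LIM scaffold gene, changed by -0.56 and -1.33 from day 5 to day 10 and day 15 in the cystic arrays and by 0.32 and 1.0 in the spiky arrays. TMEM158 changed by 0.01 and 1.12 in the cystic and by -0.98 and -1.84 in the spiky arrays. The slope differences were -2.33 (SE 0.38) and 3.01 (SE 0.57) per 10 days, with limma adjusted p = 1 for each, so neither passed. With day as a block, an alternative added after seeing the data, limma adjusted p was 0.000635 for AJUBA and 0.00614 for TMEM158.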

How the results depend on the processing

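No paired analysis was possible by replicate because the labels number none, and leaving out an array leaves no error for the cystic slope. Pairing the clones by day, chosen after seeing the data, passed 71 genes for the slope difference against 0 without it, 0 with the day block and a constant prior and 316 with the day block and centred arrays. Of 69 recomputed list medians (median centring, cyclic loess, mean of bright probe sets) 69 moved by less than 0.25, the typical residual SD, and of 600 values of named genes 46 moved by more. Among named genes no called value changed sign, and 8 values of 5 uncalled genes did. EREG went from -0.47 to 0.10 with the mean of bright probe sets, and NPM1, SLC7A11, PFKM and NPC2 lay within 0.12 of 0. The called list gene MRTO4, not among the named genes, went from -1.05 to 0.14 with the mean of bright probe sets. Of 158 called genes of the lists and named sets 14 lost their call with centring, 11 under cyclic loess and 17 with the mean of bright probe sets. Among the last were GINS2, ATF3, POLR1B, MRTO4, KIF2C, KLF4, MUC1, PKP2, TJP3, TP53INP1, DUSP4 and MIR146A. With the mean of bright probe sets 838 of the 1131 called genes were still called, with centring 944 and with cyclic loess 939. Genes lower at day 15 numbered 280 with centring and 291 with cyclic loess. At 1.5-fold the calls were 4147 (1372 steady, 315 early, 1368 late, 1092 turning; 1156 higher and 1911 lower at day 15), and at 3-fold 196 (80, 8, 85 and 23; 98 and 63). A step ratio of 0.1 gave 28 early, 185 late and 349 turning genes, and one of 0.5 gave 245 steady, 143 early, 664 late and 79 turning. Other pattern counts stayed within 1.5 times under the 12 alternatives. The slope test called 52 genes with a constant variance prior, 67 with centring, 12 with cyclic loess, 390 with a filter at log2 6 and 78 with none; the cause was not tested.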
